A study of Arabidopsis thaliana with 6 samples.

Results

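AT3G15450, AT4G27450 and AT2G20670 are Arabidopsis thaliana genes that serve as markers of carbon starvation, and they were followed here in unopened flower buds over 3 consecutive days of drought. They were chosen by name, as genes known to be repressed by sugar, and also because their values in these data turned at day 4. Each has 1 probe set with that gene as its only annotated gene, so 3 probe sets of the 22746 tested, or 3 of the 13355 genes with a named probe set, are described. Because the daily values themselves chose the genes, their levels and changes are given as a description without a test.

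All plants were of the anac019-1 line (SALK_096295), which carries a T-DNA insertion in the gene of the NAC transcription factor ANAC019 in the Col-0 background. All were under drought: water was withheld just after bolting, at 24 days of growth, soil moisture reached about 35% of the holding capacity after about 80 hours, counted as day 3, and it was held there by daily watering. Buds were taken on day 3, day 4 and day 5, from plants 28, 29 and 30 days after germination, and measured on 6 single-colour Affymetrix arrays, 2 per day. No wild-type or watered buds were analysed here. Days of drought and plant age therefore cannot be told apart, nor can the mutation be set apart from the treatment. ANAC019 has no named probe set and was not analysed here. The labels do not say that the replicates came from separate plants, so each p-value rests on a spread between arrays that may be technical only.

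When sugar runs short, plant cells switch on the kinase SnRK1, which slows growth and turns on genes for the breakdown of proteins, amino acids and other reserves. A set of transcripts is known to follow sugar closely, falling within hours of sugar supply and rising in extended darkness, and the genes described here are commonly read as part of that set. AT3G15450 and AT4G27450 encode proteins of the aluminium-induced-like family, named for conserved YGL and LRDR motifs, and AT2G20670 encodes a protein of the plant family with the domain of unknown function DUF506. The molecular roles of these proteins are not settled. Flower buds import their carbon from leaves, and their demand is high while pollen matures.

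AT3G15450 went down from day 3 to day 4 and then up steeply. Its log2 value was 8.76 and 8.91 on the day 3 arrays, 7.97 and 7.58 on the day 4 arrays, and 11.74 and 11.81 on the day 5 arrays. No array of a day reached the range of another day, with day 4 lowest and day 5 highest. The day 4 mean of 7.77 ± 0.28 lay 2.09-fold below the day 3 mean of 8.83 ± 0.11, and the day 5 mean of 11.77 ± 0.05 lay 16.0-fold above day 4 and 7.67-fold above day 3 (SD, n = 2 per day). The day 4 replicates differed by more than those of the other days, and the fall to day 4 was -1.26 on the log2 scale without day 4 replicate 1 and -0.87 without day 4 replicate 2.

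AT4G27450, of the same family, moved almost in parallel with smaller spread between replicates. The day 3 arrays read 8.02 and 7.96, the day 4 arrays 6.89 and 6.89, and the day 5 arrays 10.42 and 10.45 on the log2 scale. Again each day kept to its own range, and the lowest day 3 array lay 1.07 above the highest day 4 array. The day means were 7.99 ± 0.04, 6.89 ± 0.00092 and 10.44 ± 0.02 (SD, n = 2), a fall of 2.14-fold followed by a rise of 11.6-fold, which left day 5 at 5.44-fold over day 3.

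AT2G20670 had a shallower fall and a rise of similar size. It read 5.46 and 5.18 on day 3, 4.92 and 4.69 on day 4, and 8.67 and 8.58 on day 5. The days did not overlap, but the gap between day 3 and day 4 was 0.26, about as wide as the difference of 0.28 between the day 3 replicates. The day means of 5.32 ± 0.20, 4.81 ± 0.16 and 8.62 ± 0.07 (SD, n = 2) correspond to a 1.43-fold fall, a 14.1-fold rise and a net 9.88-fold rise from day 3 to day 5. The authors' summary method, robust multi-array averaging (RMA), can compress changes of dim probe sets, but whether it did so for this gene was not tested. With 1 array left out in turn, the fall of this gene ranged from -0.65 to -0.37 on the log2 scale.

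**Figure D1:**
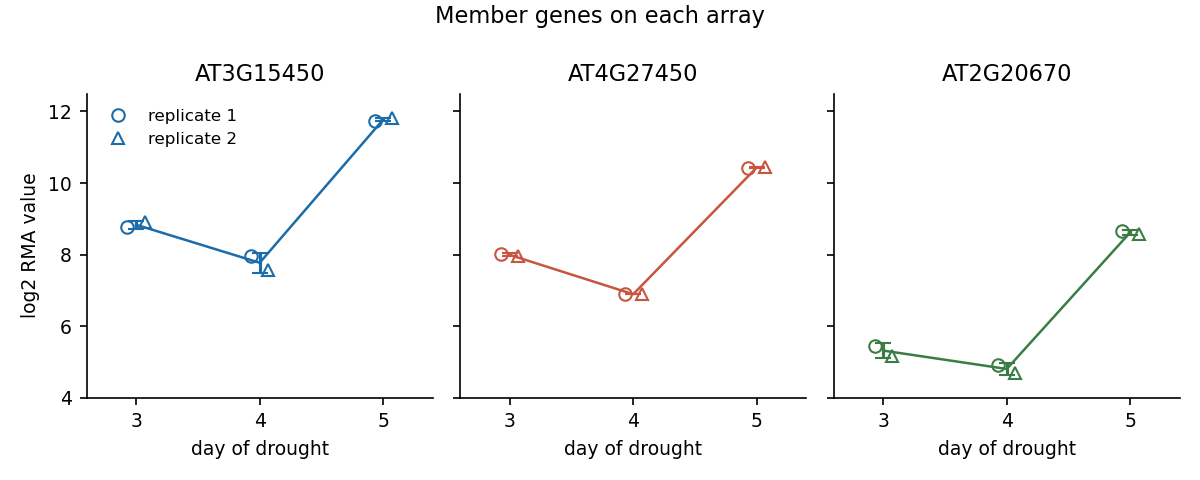
Log2 RMA value (y axis) of each gene against the day of drought (x axis). Circles and triangles are the replicate arrays, the line joins day means and the bars are SD (n = 2); all 3 genes are lowest on day 4 and highest on day 5.

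Set side by side, the members differed by up to 0.59 in the fall and by up to 0.46 in the rise on the log2 scale. The log2 change from day 3 to day 4 was -1.06 ± 0.15 for AT3G15450, -1.10 ± 0.11 for AT4G27450 and -0.51 ± 0.14 for AT2G20670, with the moderated standard error of limma. From day 4 to day 5 the change was 4.00 ± 0.15, 3.54 ± 0.11 and 3.82 ± 0.14 in the same order. The fall amounted to 26.6% of the following rise in AT3G15450, 31.0% in AT4G27450 and 13.4% in AT2G20670. After each profile was centred on its own mean, the root mean square difference over the 6 arrays was 0.26 between the aluminium-induced-like genes, 0.27 between AT3G15450 and AT2G20670, and 0.37 between AT4G27450 and AT2G20670.

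Among all 22746 tested probe sets, the rise from day 4 to day 5 placed AT3G15450 at rank 9 from the top, AT2G20670 at rank 13 and AT4G27450 at rank 22. In the fall from day 3 to day 4, AT4G27450 was at rank 36 from the bottom, AT3G15450 at rank 40 and AT2G20670 at rank 380. The turn, which is the second daily step minus the first, was 5.07 ± 0.26 for AT3G15450, 4.64 ± 0.19 for AT4G27450 and 4.33 ± 0.25 for AT2G20670 on the log2 scale, at ranks 3, 4 and 6 from the top. These ranks describe why the genes were chosen and are no independent support. For background, day 4 arrays below day 3 together with day 5 arrays above both other days occurred in 559 probe sets, which is 2.46% of all, and nothing is read from the 3 members meeting it. A fall and a rise each at least as large as the smallest among the members, -0.51 and 3.54, was found in 5 probe sets: the members, AT1G22890, and 1 probe set without a named gene.

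**Figure D2:**
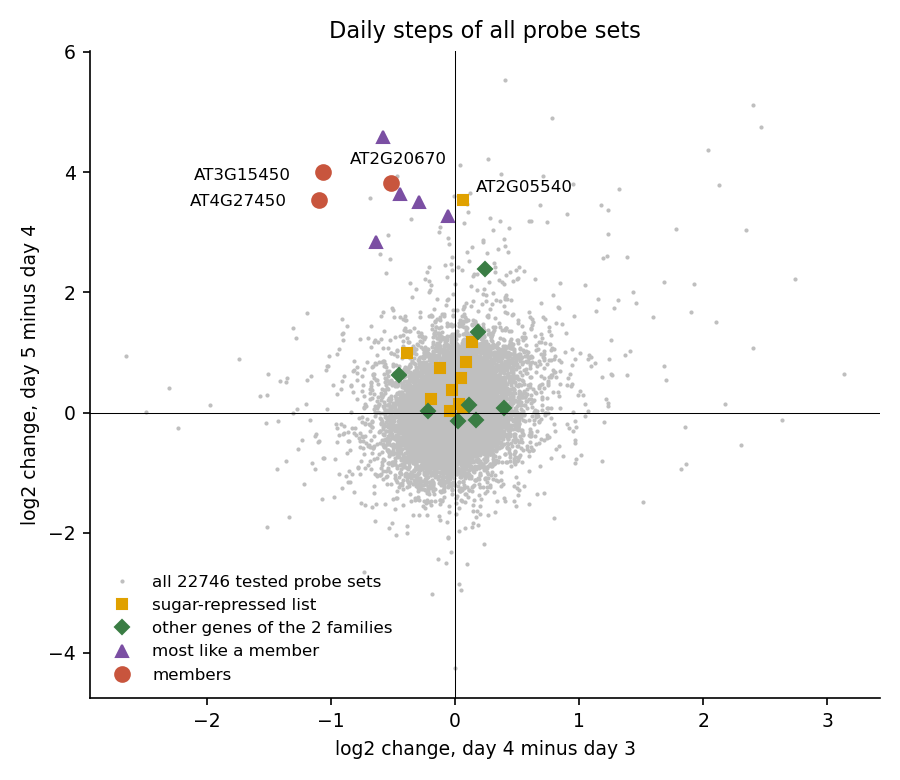
Log2 change from day 3 to day 4 (x axis) against log2 change from day 4 to day 5 (y axis) for all 22746 tested probe sets, with the members, the genes most like them, other genes of both families and the sugar-repressed list marked. The members stand at the upper left, with falls of 0.51 to 1.10 followed by rises of 3.54 to 4.00.

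A listed gene counts as measured here if a probe set names it as its only gene. Listed genes not measured may lie among the 503 probe sets with several genes or the 8730 with none. The other measured genes of the aluminium-induced-like family differed by at most 0.62 on the log2 scale at either step. Between day 4 and day 5, 1 of the 3 rose, none fell and 2 did not pass the limma test at an adjusted p of 0.05, where 22.1% of all tested probe sets passed, 10.4% higher and 11.6% lower. The family median of these 3 was 0.08 on the log2 scale, beside -0.04 over all 13355 genes. AILP1 (AT5G19140) rose by 0.62 ± 0.14 (limma adjusted p = 0.0194), from 9.51 and 9.55 on day 4 to 10.13 and 10.17 on day 5. Its day 3 arrays, at 9.79 and 10.16, lay above those of day 4, a difference of -0.45 that did not pass (limma adjusted p = 0.334), and the replicates of day 3 differed by nearly that much. The rise of AILP1 did not pass when any 1 array of days 4 and 5 was left out (adjusted p = 0.0604 to 0.108) or when arrays were centred on the mean of the poly-A spike-in controls (0.22, adjusted p = 0.323). AT3G22850 differed by 0.08 and AT5G43830 by -0.14 at this step (limma adjusted p = 0.708 and 0.644). From day 3 to day 4 none of the 3 passed, beside 0.501% of all tested probe sets passing, 0.268% higher and 0.233% lower. Before adjustment, 2 had a limma p under 0.05 (AILP1, lower, and AT3G22850, higher by 0.40). No share of all probe sets is given at that looser threshold.

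Of 13 listed genes of the DUF506 family 6 were measured, AT2G20670 among them, and the measured genes split. Of 5 measured genes besides AT2G20670, 2 rose from day 4 to day 5, none fell and 3 did not pass, beside 10.4% of all tested probe sets higher and 11.6% lower, and their median change was 0.12. AT3G07350 read 5.87 and 5.28 on day 3, 5.94 and 5.69 on day 4, and 8.31 and 8.08 on day 5, a rise of 2.38 ± 0.20 or 5.21-fold (limma adjusted p = 0.000534). Its days 3 and 4 overlapped and day 5 stood clear above both. AT2G38820 read 8.23 to 8.50 on the arrays of days 3 and 4 and reached 9.79 and 9.76 on day 5, a rise of 1.34 ± 0.11 or 2.54-fold (limma adjusted p = 0.000477). Neither rise was lost under any alternative tried. AT2G39650, AT3G22970 and AT1G12030 differed by 0.12, 0.02 and -0.12 (limma adjusted p = 0.682, 0.937 and 0.538). None of the 5 passed by limma from day 3 to day 4, nor had any an unadjusted p under 0.05, and their changes ranged from -0.22 to 0.24.

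In the turn itself, where 1.93% of all tested probe sets passed, 1.41% higher and 0.523% lower, AT3G07350 (2.14, limma adjusted p = 0.03) and AT2G38820 (1.16, adjusted p = 0.031) passed with all 6 arrays. That of AT2G38820 was lost whichever array was left out (adjusted p = 0.0568 to 0.4) and with centring on the poly-A controls (0.86, adjusted p = 0.141). That of AT3G07350 was lost without either day 4 or either day 5 array (adjusted p = 0.0604 to 0.358). None of the 3 aluminium-induced-like genes passed by limma; 1 had an unadjusted p under 0.05, AILP1 at 1.07 (adjusted p = 0.0793), which passed with cyclic loess, a trended and robust prior or array weights (adjusted p = 0.0421, 0.0468 and 0.0385).

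Beside the members, a list of 45 other genes known to be repressed by sugar or induced in starvation was examined, and 11 of them had a named probe set. The list was chosen with earlier results of these data known, so its counts are no independent support. From day 4 to day 5, 6 of the 11 rose, none fell and 5 did not pass, with a median change of 0.57 beside -0.04 over all genes, where 10.4% of all tested probe sets were called higher and 11.6% lower. Their changes ranged from 0.02 to 3.53. With centring on the poly-A controls the list median was 0.17, and 6 of the 11 changes were above 0 and 5 below. AT2G05540, annotated as a glycine-rich protein gene, came nearest to the members. It read 5.84 and 6.16 on day 3, 6.07 and 6.06 on day 4, and 9.51 and 9.68 on day 5, a rise of 3.53 ± 0.14 or 11.5-fold (limma adjusted p = 1.76e-05). It had no fall at day 4, with a change of 0.06 (adjusted p = 0.949).

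AKINBETA1 (AT5G21170), a beta subunit of the SnRK1 kinase, had the members' shape at a smaller scale. Its arrays read 8.23 and 8.31 on day 3, 7.82 and 7.94 on day 4, and 8.90 and 8.85 on day 5, and the days did not overlap. The rise of 0.99 ± 0.11 to day 5 passed (limma adjusted p = 0.00144), the change of -0.39 to day 4 did not (adjusted p = 0.276), and the turn of 1.39 did (adjusted p = 0.0181). The turn was lost without replicate 1 or replicate 2 of day 4, without replicate 2 of day 5 and with centring on the poly-A controls (adjusted p = 0.207, 0.195, 0.0554 and 0.0539). Of the list, AT2G05540 was the other gene to pass in the turn with all 6 arrays (3.47, adjusted p = 0.00125).

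CCL (AT3G26740), a gene whose messenger is known to be short-lived, rose by 1.17 ± 0.12 (limma adjusted p = 0.00116). Its turn of 1.03 did not pass in the main fit (adjusted p = 0.0616). That turn passed with cyclic loess, a trended and robust prior or array weights (adjusted p = 0.0457, 0.0276 and 0.0371). In leucine breakdown, a source of energy when sugar is scarce, MCCA (AT1G03090), a subunit of methylcrotonyl-CoA carboxylase, rose by 0.74 ± 0.13 (adjusted p = 0.00808) and IVD (AT3G45300), isovaleryl-CoA dehydrogenase, by 0.57 ± 0.12 (adjusted p = 0.0124). Both rises were lost with centring on the poly-A controls, at 0.34 for MCCA and 0.17 for IVD (adjusted p = 0.125 and 0.426). They were also lost without either day 4 array and without day 5 replicate 2 (adjusted p = 0.0557 to 0.0677 for MCCA and 0.051 to 0.11 for IVD). Their partners differed less: MCCB, the other carboxylase subunit, by 0.15 (limma adjusted p = 0.387) and ETFQO, which takes up the electrons, by 0.02 (adjusted p = 0.934). D2HGDH, D-2-hydroxyglutarate dehydrogenase, differed by 0.23 (adjusted p = 0.299). AT2G32150, of the haloacid dehalogenase-like hydrolases, rose by 0.84 ± 0.16 (adjusted p = 0.00909), which was lost with the poly-A centring (0.44, adjusted p = 0.072) and without replicate 2 of day 4 or of day 5 (adjusted p = 0.07 and 0.054). The ubiquitin ligase gene ATL8 differed by 0.37 (limma adjusted p = 0.186) and the xylose isomerase gene AT5G57655 by 0.09 (adjusted p = 0.823). Without day 5 replicate 1 the change of ATL8 was 0.62.

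The count of 6 fell to 3 when replicate 2 of day 4 or of day 5 was left out, and to 3 with centring on the poly-A controls; AT2G05540, CCL and AKINBETA1 passed in each of these. From day 3 to day 4 none of the 11 passed by limma and 1, AKINBETA1, had an unadjusted p under 0.05, with a median change of 0.03 and a range from -0.39 to 0.13.

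**Figure D3:**
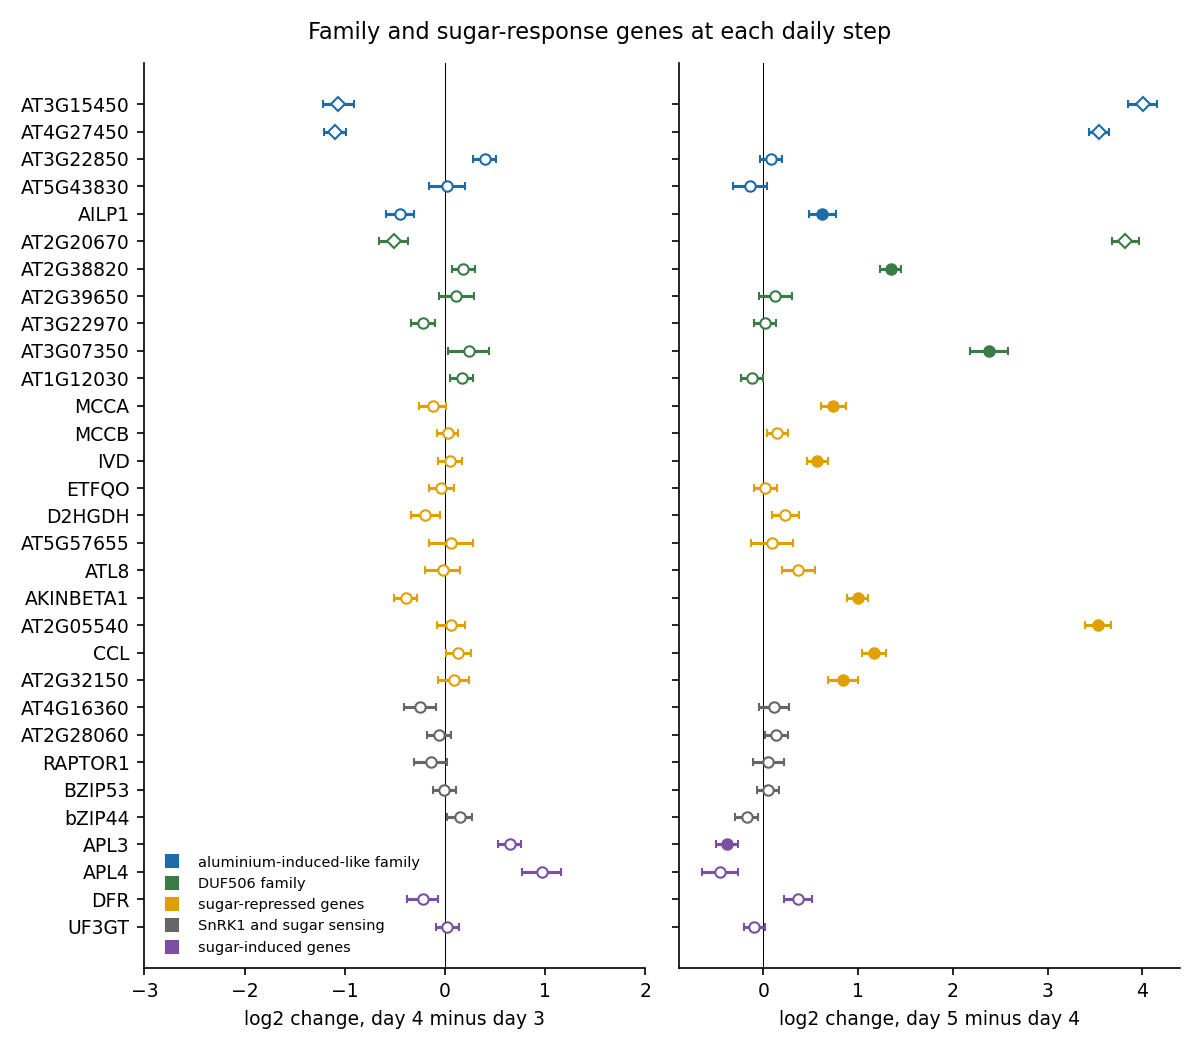
Log2 change (x axes) of each measured gene (rows) of both families and of the sugar lists, from day 3 to day 4 on the left and from day 4 to day 5 on the right, with the standard error of limma as bars. Diamonds are the members, which were not tested; filled circles passed the limma test and open circles did not. The members read from -1.10 to -0.51 on the left and from 3.54 to 4.00 on the right.

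The list of sugar sensing genes did not hold AKINBETA1, and 5 of its 16 genes were measured. Of these 5, which were the SnRK1 subunit genes AT4G16360 (KINbeta2) and AT2G28060 (KINbeta3), the TOR partner RAPTOR1 and the transcription factors BZIP53 and bZIP44, none passed at either step by limma or had an unadjusted p under 0.05, and the changes from day 4 to day 5 ranged from -0.18 to 0.14. With centring on the poly-A controls bZIP44 passed as lower at the later step (-0.58, limma adjusted p = 0.0176). Of 13 listed genes known to be induced by sugar 4 were measured. From day 4 to day 5, 1 of these 4 fell and 3 did not pass, beside a background of 11.6% lower and 10.4% higher. APL3 (AT4G39210), a large subunit of ADP-glucose pyrophosphorylase in starch synthesis, read 7.83 and 7.99 on day 3, 8.51 and 8.60 on day 4, and 8.17 and 8.18 on day 5. APL3 was thus highest on the day when the members were lowest. Its rise of 0.65 to day 4 did not pass with all 6 arrays (limma adjusted p = 0.0782) and passed with a trended and robust prior (adjusted p = 0.0411). Its change of -0.39 ± 0.12 to day 5 passed narrowly (limma adjusted p = 0.0487) and was lost with cyclic loess, with centring on the array median, with probe sets of 1 gene only and without any 1 array of days 4 and 5 (adjusted p = 0.0508 to 0.256). The turn of APL3 was -1.03 (adjusted p = 0.0493), also lost whichever array was left out (adjusted p = 0.0556 to 0.469). The related APL4 differed by 0.97 and then by -0.46, neither past the test with all 6 arrays (adjusted p = 0.112 and 0.13). The later change did pass with only the 4 arrays of days 4 and 5 or without either day 3 array (adjusted p = 0.0256), and with the poly-A centring (-0.86, adjusted p = 0.0037). The turn of APL4 was -1.43, and it passed with the poly-A centring, a trended and robust prior, array weights and without day 3 replicate 2 (adjusted p = 0.0122, 0.0445, 0.0359 and 0.0235). The anthocyanin genes DFR and UF3GT differed by 0.37 and -0.10 at the later step (limma adjusted p = 0.13 and 0.595). At the earlier step they differed by -0.22 and 0.03 (adjusted p = 0.75 and 0.976). DFR was thus lowest on day 4, as the members were, with day means of 4.45, 4.23 and 4.59. Of 12 listed genes of starch breakdown only DPE1 and PWD had a named probe set, with later changes of -0.27 and 0.08 (limma adjusted p = 0.277 and 0.675).

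The genes most like each member were found by the root mean square difference of the 6 centred log2 values, over 13513 probe sets with 1 gene. AT3G20340 was nearest to AT2G20670, at 0.09, with arrays at 5.38 and 5.16, then 5.01 and 4.64, then 8.51 and 8.41. It was also nearest to AT3G15450, at 0.28, and second to AT4G27450, at 0.36. AT5G61590 (DEWAX), a transcription factor gene known to lower wax synthesis in the dark, was among the nearest 3 of every member, at 0.19 from AT2G20670, 0.32 from AT3G15450 and 0.38 from AT4G27450. Its values were 5.62 and 5.73, then 5.52 and 5.25, then 8.79 and 8.98, so the fall at day 4 was small, at -0.29, and the rise was 3.50. AT4G05070 was nearest to AT4G27450, at 0.35, with day 3 arrays at 9.35 and 8.69 that differed by more than the fall. AT1G22890 lay 0.45 from AT3G15450, with a fall of -0.58 and a rise of 4.59, and AT1G15330 lay 0.24 from AT2G20670 with a rise of 3.28. Among the probe sets searched, none was thus as near to AT4G27450 as that of AT3G15450, at 0.26. Probe sets with several genes or none were not searched. They include the unnamed probe set whose fall and rise were as large as those of the members. The 6 arrays share 3 days, so likeness here rests mainly on 3 day means.

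**Figure D4:**
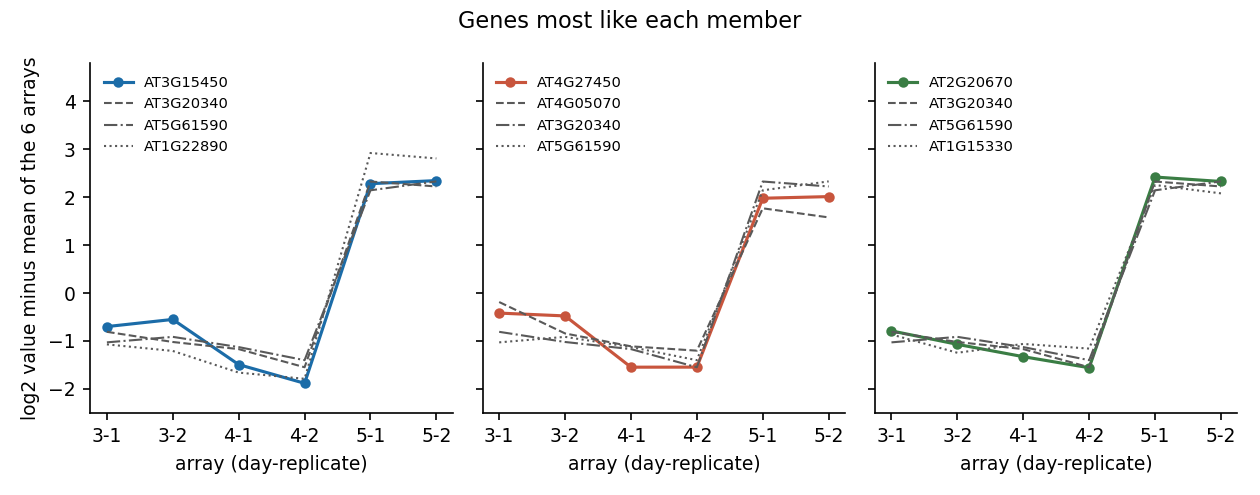
Log2 value minus the mean of the 6 arrays (y axis) on each array (x axis, day and replicate) for each member (coloured, points) and the 3 genes most like it (grey). All curves rise between day 4 and day 5, while the fall at day 4 is deepest in AT3G15450 and AT4G27450.

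Other features of the buds moved over the same days, and their part in the members' changes was not tested. In bulk buds, fewer cells of a type and less RNA per cell cannot be told apart. Of 9 listed late pollen genes 6 were measured, and 5 of these 6 rose from day 4 to day 5, beside 10.4% of all tested probe sets. The mean log2 value of the 6 genes was 6.20 to 6.57 on the arrays of days 3 and 4 and 7.30 and 7.72 on day 5. AGL66, a regulator of pollen maturation, rose by 0.97 (limma adjusted p = 0.00233). Of 12 listed genes of the tapetum, the nutritive layer of the anther in young buds, 3 were measured. Of these, 1 fell, beside 11.6% of all tested probe sets: SHT, with a change of -1.83 (limma adjusted p = 0.00338). AMS differed by -0.60 (adjusted p = 0.0704). It passed with a trended and robust prior, array weights and poly-A centring (limma adjusted p = 0.0466, 0.0466 and 0.00048). The change of AMS also depended on the day 5 arrays, at -0.90 without day 5 replicate 1. The mean log2 value of the 3 genes was 10.25 to 10.41 on days 3 and 4 and 9.81 and 9.09 on day 5. Of 12 floral identity genes UFO alone had a named probe set, which read 3.92 to 4.17, near the lower end of the scale. Of 12 leaf photosynthesis genes RCA alone had a named probe set. It differed by -0.52 from day 3 to day 4 and by -0.22 at the later step (limma adjusted p = 0.142 and 0.207). From day 3 to day 5 it was lower by limma, at -0.74 (adjusted p = 0.00261), as were 14.4% of all genes. With centring on the poly-A controls the later step passed too (-0.62, adjusted p = 0.00813).

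Of the 21 genes of the clock list 3 had a named probe set. These 3 rose from day 4 to day 5, beside 10.4% of all tested probe sets. The rises were 1.95 for AT4G33980, 1.47 for COR27 and 1.07 for GI (limma adjusted p = 0.000346, 0.000954 and 0.00218). GI (GIGANTEA), a clock-associated gene, also rose from day 3 to day 4, by 2.40 (adjusted p = 0.00246), the step at which the members read lower. The labels used here do not give the hour of harvest. The dehydration list held 16 genes, of which 4 were measured. From day 3 to day 4, 1 of these 4 rose and 3 did not pass, beside 0.268% of all tested probe sets higher. LTI30, at 2.34, was among those that did not pass (limma adjusted p = 0.147). It passed there with centring on the poly-A controls (2.24, adjusted p = 0.00264). Of 4 measured dehydration genes 2 rose and 1 fell at the later step, beside 10.4% higher and 11.6% lower among all tested probe sets, with LTI30 at 3.03 (adjusted p = 0.00672; 0.0601 without day 4 replicate 2) and COR15B at -1.25 (adjusted p = 0.000659). Poly-A spike-in controls, whose added amounts are not recorded here, averaged 6.38 to 6.64 on the arrays of days 3 and 4 and 7.03 and 6.87 on day 5. With arrays centred on them the members' changes to day 5 were 3.60 for AT3G15450, 3.14 for AT4G27450 and 3.42 for AT2G20670, and the median over all probe sets was -0.44. The mean 3′ minus 5′ difference of actin, GAPDH and ubiquitin control probe sets, a sign of RNA integrity, was 2.94 in day 3 replicate 1 and 2.30 to 2.48 in the other arrays. Without that array the members' changes from day 3 to day 4 were -1.14 for AT3G15450, -1.07 for AT4G27450 and -0.37 for AT2G20670.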

How the data were processed

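The authors deposited log2 probe set values; per the submitters' processing notes they used RMA and the R package affy, with no versions given. RMA corrects background, equalises the arrays' distributions and summarises probes by median polish, so each change is one against the bulk of transcripts. Values ran from 2.30 to 14.46, without detection calls or scan dates. Having 2 arrays a day limits the precision.

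The 64 control probe sets were left out of 22810. Names came from the platform annotation and, by gene identifier, a RefSeq table of TAIR10.1. Of the rest, 13513 had 1 gene, 503 several and 8730 none. The brightest probe set stood for a gene. Comparisons of day means used limma 3.58.1 under R 4.3.3 (lmFit, eBayes, 1 model of 3 day means, 3 residual and 4.69 prior degrees of freedom), two-sided, with Benjamini-Hochberg adjustment over all 22746 probe sets. The code was tested on simulated data.

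The members and the 12 gene lists were chosen with earlier results of these data known. The naming rule took every measured gene of both families, up to 8 risers and 8 fallers of the sugar-repressed list, up to 4 genes each of the sensing, sugar-induced, starch and clock lists and up to 2 of the others, by p from day 4 to day 5, and the 3 genes most like each member. RAPTOR1, MCCB, ETFQO, D2HGDH, ATL8 and AT5G57655 are named beside these to account for their lists.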

Additional observations from a re-analysis of the deposited data

How the results depend on the processing

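The falls and rises of the 3 members kept their sign under all 11 alternatives run for them. Array weights, the replicate block and leaving out an array of the day not compared returned the same values, so they could not show a change. The members were chosen by these values, so the kept signs are a description and no independent support. Leaving out 1 array gave -1.26 to -0.87, -1.13 to -1.07 and -0.65 to -0.37 for the change from day 3 to day 4 in AT3G15450, AT4G27450 and AT2G20670, and 3.81 to 4.20, 3.52 to 3.56 and 3.70 to 3.93 for day 4 to day 5. AT4G27450 was at -1.20 and 3.14 with centring on poly-A spike-ins and at 3.61 with cyclic loess. AT3G15450 and AT2G20670 were at 3.60 and 3.42 with the poly-A centring.

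Counts of called probe sets moved more. From day 3 to day 4 the count of 114 was 205 with poly-A centring, 46 with probe sets of 1 gene only (fewer probe sets tested), 58 with the 4 arrays of these days, and 15 to 58 without 1 array. From day 4 to day 5 the count of 5020 was 11929, of which 7.69% were higher, with poly-A centring and 2548 with probe sets of 1 gene only. It was 1366 to 5427 without 1 array, at its lowest without day 4 replicate 2, and 2099 and 2146 without day 4 replicate 1 or day 5 replicate 2. For the turn the count of 440 was 784 with poly-A centring, 161 with 1 gene only, 829 with array weights, and 34 to 408 without 1 array: 34 and 43 without a day 4 array, 165 when replicate 2 of day 5 was left out and 204 when replicate 1 of day 3 was. The split of the turn calls, 73.0% higher with all arrays, was 28.1% with poly-A centring and 63.6% with array weights. Poly-A centring shifts all probe sets of an array by the same amount. It moved the median turn over all probe sets from -0.03 to -0.33, and array weights left that median unchanged. The split of the calls from day 4 to day 5 was 47.3% higher, against 56.7% with cyclic loess. The sugar-repressed count of 6 was 3 with poly-A centring and 3 to 7 without 1 array.

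The differences between replicates correlated across probe sets with r = 0.0987, 0.145 and 0.376 between days, so the replicate numbers were not taken to pair the samples. With the replicate block 123, 5827 and 546 probe sets were called for the 3 comparisons, and no call of a named gene was lost. Values of named genes that did not pass changed sign from day 4 to day 5 with poly-A centring: AT2G28060 (-0.26), AT2G39650 (-0.27), AT3G22850 (-0.32), AT3G22970 (-0.38), AT4G16360 (-0.29), BZIP53 (-0.35), DFR (-0.033), PWD (-0.32), RAPTOR1 (-0.35), MCCB (-0.25), ETFQO (-0.38), D2HGDH (-0.17), ATL8 (-0.029) and AT5G57655 (-0.31). Without 1 array AT2G39650 ranged from -0.032 to 0.28, AT3G22970 from -0.082 to 0.12 AT4G16360 from -0.11 to 0.33, RAPTOR1 from -0.12 to 0.23, ETFQO from -0.10 to 0.14 and AT5G57655 from -0.11 to 0.30, and from day 3 to day 4 AT1G15330 ranged from -0.25 to 0.14. Poly-A centring, under which the median over all probe sets was -0.44, also added calls of named genes from day 4 to day 5. All were lower: AT5G43830 (-0.54), AT1G12030 (-0.52), bZIP44 (-0.58), APL4 (-0.86), UF3GT (-0.50), DPE1 (-0.67), UFO (-0.55), AMS (-0.99) and RCA (-0.62). Their limma adjusted p ran from 0.00048 to 0.0395. Each of the 11 sugar-repressed genes has 1 probe set, so the median over probe sets gave the same count.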
